A study of Mus musculus with 9 samples.

Results

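The 10 genes described here encode the calcineurin-NFAT branch of T cell receptor signalling and the calcium entry that drives it: Nfatc1, Nfatc2, Nfatc3, Nfat5, Rcan1, Ppp3ca, Ppp3cb, Orai1, Stim1 and Stim2. They were taken by gene symbol from 37022 genes, and each is represented by its annotated transcript with the most gene-body signal on average. All 10 passed the filter on low values (a signal of 50 or more in 3 or more libraries) and were among the 15942 genes tested. Nascent RNA was sequenced from CD8+ (cytotoxic) T cells of mice after a 30 min pulse of 0.2 mM 5-ethynyl uridine, which is built into newly made RNA and allows its capture. The 9 libraries formed 3 groups of 3: acute stimulation (Acute), chronic stimulation (Chronic), and chronic stimulation with MEK inhibition (ChronicMEKi), MEK being the kinase that activates ERK. The study set out to follow nascent transcription in relation to T cell exhaustion, the loss of function under persistent stimulation. Strain, genotype, age of the mice, number of animals, stimulus, durations and the inhibitor are not given in the sources used here. Nothing states that replicates came from separate animals or cultures, so p-values measure only the spread between these libraries.

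When the T cell receptor empties the calcium store of the endoplasmic reticulum, the sensors STIM1 and STIM2 open the plasma membrane channel ORAI1. The calcium that enters binds calmodulin and activates the phosphatase calcineurin, whose catalytic subunits are encoded by Ppp3ca and Ppp3cb, and calcineurin dephosphorylates NFATc1, NFATc2 and NFATc3, which then enter the nucleus. RCAN1 is a calcineurin inhibitor that is itself induced by NFAT from an internal promoter, and NFAT5 is the family member that responds to osmotic stress and lacks the calcineurin docking region. In CD8+ T cells NFAT drives cytokine genes together with AP-1, and NFAT acting without AP-1 is a known driver of the exhaustion programme.

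The deposited gene-body signal over 1 row per gene summed to between 48602000 and 52216000 per library, and depth in reads is unknown. Ribosomal RNA-like rows took 19.1% to 22.3% of it in Acute, 34.2% to 40.6% in Chronic and 29.0% to 36.1% in ChronicMEKi libraries. Values below are signal scaled by a trimmed mean of log ratios, and changes are on the log2(signal + 5) scale, which understates changes of weak genes. Scaling by library totals instead would move the median gene by -0.48 between Chronic and Acute. The CD8 T cell list held Cd8a and Cd8b1 besides general T cell genes (Cd3e, Cd3d, Cd3g, Cd2, Lck and Zap70). All 8 were tested, and their summed scaled signal was 28900 to 33640 in Acute, 19730 to 21350 in Chronic and 24000 to 26450 in ChronicMEKi libraries. Cd8a itself was lower in Chronic than in Acute by a log2 difference of -2.07 (limma adjusted p = 5.65e-10), and 6 of the 8 genes were called lower there, against 15.9% of all genes tested. With MEK inhibition 3 of the 8 were higher than in Chronic (9.93% of all genes were), and 4 were lower than in Acute (11.5%). Of other lineages, B cell markers (3 of 5 tested) summed to 557 to 621, 212 to 265 and 176 to 473 in Acute, Chronic and ChronicMEKi, and myeloid markers (2 of 6 tested) to 166 to 236, 114 to 172 and 96.1 to 256. Natural killer cell markers (2 of 4 tested) summed to 1315 to 1537, 982 to 1853 and 1587 to 1718. Nearly all of that was Eomes, which CD8+ T cells also express and which was not called, while Tyrobp averaged 81.3, 21.8 and 18.1 and was called lower in both chronic groups than in Acute. The filter on low values admitted Tyrobp through its Acute libraries alone (51.9 to 103), as no other library exceeded 35.1. That selection favours a call of lower than Acute. CD4 T cell markers (2 of 2) summed to 1040 to 1367, 1054 to 1383 and 1729 to 2016. Cd4 itself averaged 442, 234 and 116 and was called lower in all 3 comparisons, and Zbtb7b averaged 789, 1002 and 1769 and was called higher in both comparisons of ChronicMEKi. No marker was at 0 in all libraries, but the myeloid marker Lyz2 did not exceed 8.49 in any library. Called in Chronic against Acute were 1 B cell, 1 natural killer cell and 1 CD4 T cell marker, all lower (15.9% of all genes were), and no myeloid marker. The part of these markers in the results below was not tested.

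NFAT proteins bind a GGAAA core, so the promoters of the members were read for it on both strands (GGAAA or its complement TTTCC, shown in capitals). The 250 bases before each RefSeq start (GRCm38.p6) were available for 11 starts of 8 members. The first pair are the alternative starts of Rcan1, the textbook NFAT target of the group: the internal start at chr16:92400079-92400328 and the upstream start at chr16:92466170-92466419, both on the minus strand. They are shown because the data below separate these starts.

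Rcan1 internal start: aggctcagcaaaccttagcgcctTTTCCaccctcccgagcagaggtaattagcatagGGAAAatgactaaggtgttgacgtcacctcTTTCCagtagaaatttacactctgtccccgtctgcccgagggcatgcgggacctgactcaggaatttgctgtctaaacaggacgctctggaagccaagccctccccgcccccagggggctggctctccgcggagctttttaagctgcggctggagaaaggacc

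Rcan1 upstream start: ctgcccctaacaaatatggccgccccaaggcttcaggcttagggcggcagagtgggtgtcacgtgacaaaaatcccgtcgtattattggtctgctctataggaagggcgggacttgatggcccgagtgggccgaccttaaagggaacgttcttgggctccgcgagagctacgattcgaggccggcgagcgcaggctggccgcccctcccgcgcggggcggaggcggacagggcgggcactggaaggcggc

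The internal Rcan1 window held 3 cores and 1 match to the AP-1 motif TGANTCA (left in lower case, and unable to overlap a core), and the upstream window held none of either. The second pair are the starts of Nfatc2, upstream at chr2:168601658-168601907 and downstream at chr2:168590366-168590615, minus strand, which also differ in signal below.

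Nfatc2 upstream start: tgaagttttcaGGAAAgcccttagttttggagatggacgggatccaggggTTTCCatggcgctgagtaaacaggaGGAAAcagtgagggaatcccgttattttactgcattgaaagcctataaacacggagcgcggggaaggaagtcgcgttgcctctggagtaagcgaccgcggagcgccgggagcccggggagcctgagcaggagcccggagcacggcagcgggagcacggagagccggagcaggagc

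Nfatc2 downstream start: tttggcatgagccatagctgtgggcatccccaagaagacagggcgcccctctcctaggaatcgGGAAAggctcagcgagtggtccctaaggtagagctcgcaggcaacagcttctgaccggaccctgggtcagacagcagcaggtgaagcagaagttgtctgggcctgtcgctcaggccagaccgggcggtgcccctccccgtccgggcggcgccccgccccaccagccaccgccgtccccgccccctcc

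These windows held 3 cores and 1 core. The last set are the member with the steepest fall under chronic stimulation, Ppp3cb (chr14:20546574-20546823, minus strand), and the members that rose, Nfat5 (chr8:107293220-107293469, plus strand) and Orai1 (chr5:123014824-123015073, plus strand).

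Ppp3cb: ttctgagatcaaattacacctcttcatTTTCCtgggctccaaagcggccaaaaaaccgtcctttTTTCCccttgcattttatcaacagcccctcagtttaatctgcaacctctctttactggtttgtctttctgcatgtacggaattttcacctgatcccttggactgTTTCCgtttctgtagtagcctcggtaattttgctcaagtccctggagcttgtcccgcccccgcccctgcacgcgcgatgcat

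Nfat5: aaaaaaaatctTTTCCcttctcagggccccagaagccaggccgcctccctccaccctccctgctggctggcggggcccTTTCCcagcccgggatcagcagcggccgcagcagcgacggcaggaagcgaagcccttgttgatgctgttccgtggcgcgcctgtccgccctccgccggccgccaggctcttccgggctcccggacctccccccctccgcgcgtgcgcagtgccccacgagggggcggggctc

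Orai1: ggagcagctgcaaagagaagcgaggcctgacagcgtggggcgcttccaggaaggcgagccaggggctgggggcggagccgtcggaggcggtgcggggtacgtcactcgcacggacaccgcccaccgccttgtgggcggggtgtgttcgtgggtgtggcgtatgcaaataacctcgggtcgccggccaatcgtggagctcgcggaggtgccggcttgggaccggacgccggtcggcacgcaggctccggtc

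The Ppp3cb window held 3 cores, that of Nfat5 2 and that of Orai1 none, the windows of Nfatc3 1 and none, and those of Stim1 and Stim2 none. A core on either strand was present in 55.6% of 32851 RefSeq promoters of this length, at least 3 cores in 6.39%, and the AP-1 motif in 6.75%. A match is a string of letters and no evidence of binding. Windows with 3 cores belonged to Ppp3cb and Nfatc2, which fell under chronic stimulation, and to Rcan1, which showed no called change. For Nfatc2 and Rcan1 these windows lie at starts with little signal nearby, at most 9.82 and 2.65 in any library.

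Chronic and acute stimulation were compared first. In the gene body, 8 of the 10 members differed between Chronic and Acute (limma, adjusted p under 0.05 by Benjamini and Hochberg over all genes), against 33.9% of all genes tested. Of these, 6 were lower in Chronic (Nfatc1, Nfatc2, Nfatc3, Ppp3ca, Ppp3cb and Stim2; 15.9% of all genes were called lower) and 2 were higher (Nfat5 and Orai1; 18.0%). The libraries of the groups did not overlap for the same 8, which holds for 44.2% of all genes (22.4% above and 21.9% below). The median log2 change was -0.47 over the members and -0.02 over all genes tested. Each of the 8 calls held in all 20 alternative settings, and library totals and the deposited scale added Stim1 to the lower ones. In bulk libraries, fewer cells transcribing a gene and less transcription per cell cannot be told apart.

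**Figure D1:**
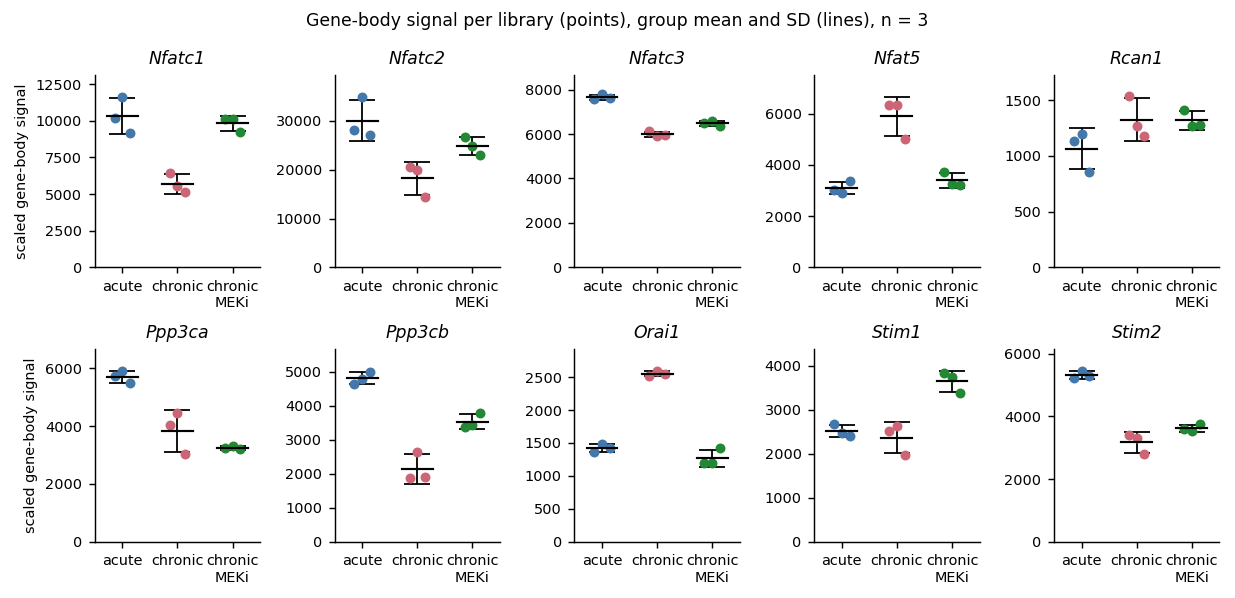
Scaled gene-body signal (y axis, from 0) of the 10 genes in each of the 9 libraries, by group (x axis); points are libraries, long lines group means and bars 1 SD (n = 3). Chronic points of Nfat5 (5020 to 6336) and Orai1 (2516 to 2591) stand above both other groups, and those of Nfatc1, Nfatc2, Nfatc3, Ppp3cb and Stim2 below both.

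Among the NFAT factors that calcineurin controls, Nfatc2 carried the most signal. Nfatc2, the factor preformed in resting T cells, is annotated at chr2:168476410-168590365 on the minus strand (GRCm38), and its gene-body signal was 28120, 34860 and 27060 in Acute, 20450, 19920 and 14410 in Chronic, and 26740, 24780 and 23000 in ChronicMEKi. All Chronic libraries lay below all Acute ones, with the ChronicMEKi libraries above Chronic and below Acute without overlap. The fall from Acute to Chronic was a log2 change of -0.73 (SE 0.13, limma adjusted p = 3.28e-04).

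Nfatc1, which T cells induce on activation, lies at chr18:80606205-80713058 on the minus strand, overlapped by AC123818.1 on the other strand. Its signal was 10220, 11630 and 9163 in Acute, 6440, 5520 and 5112 in Chronic, and 10120, 10090 and 9244 in ChronicMEKi. Chronic libraries were the lowest, and those with MEK inhibition lay inside the range of Acute. The log2 change from Acute to Chronic was -0.86 (SE 0.10, limma adjusted p = 3.31e-06), or 1.82-fold lower.

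Nfatc3, the third calcineurin-controlled factor, lies at chr8:106059633-106130537 on the plus strand, overlapped by Gm27956 and Esrp2 on the other strand. Its libraries were tight: 7581, 7793 and 7622 in Acute, 6129, 5921 and 5941 in Chronic, and 6479, 6583 and 6369 in ChronicMEKi. The groups did not overlap, with Chronic lowest and Acute highest. The change to Chronic was the smallest of the called falls, at -0.35 (SE 0.08, limma adjusted p = 0.00181).

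Nfat5, at chr8:107293470-107379517 on the plus strand, went the other way. Its row is annotated as a nonsense-mediated decay transcript, and a protein-coding row from the same start had the same group means. Nfat5 signal was 3024, 2898 and 3357 in Acute, 6333, 6336 and 5020 in Chronic, and 3718, 3252 and 3214 in ChronicMEKi, so that only the Chronic libraries stood high. The rise from Acute to Chronic was 0.92 (SE 0.11, limma adjusted p = 2.37e-06), or 1.90-fold. The 3 calcineurin-controlled factors and Nfat5, which is not under calcineurin control, thus had calls of opposite sign.

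Both catalytic subunits of calcineurin among the 10 genes fell. Ppp3cb, the beta isoform (chr14:20499364-20546573, minus strand; 1810062O18Rik overlaps on the other strand), had signal of 4646, 4804 and 5000 in Acute, 1862, 2647 and 1896 in Chronic, and 3382, 3428 and 3795 in ChronicMEKi. The 3 groups were separate, with ChronicMEKi between the others. At -1.19 (SE 0.12, limma adjusted p = 3.51e-07), or 2.28-fold lower, this was the steepest change of any member from Acute to Chronic.

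Ppp3ca, the alpha isoform, spans 267.6 kb at chr3:136670124-136937727 on the plus strand and shares part of it with Gm42822 on the same strand and with 4930599N24Rik and Gm44327 on the other. Signal was 5717, 5919 and 5493 in Acute, 4028, 4456 and 3032 in Chronic, and 3235, 3319 and 3193 in ChronicMEKi. Both chronic groups lay below Acute and overlapped each other. The change from Acute to Chronic was -0.59 (SE 0.12, limma adjusted p = 5.97e-04).

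Rcan1, the calcineurin inhibitor (chr16:92392510-92470867, minus strand, overlapped by Gm46555 on the other strand), did not pass the test. Its signal was 1137, 1200 and 854 in Acute, 1539, 1266 and 1175 in Chronic, and 1416, 1267 and 1277 in ChronicMEKi, with Acute and Chronic overlapping at 1 library each. The change from Acute to Chronic was 0.32 (95% interval 0.01 to 0.64, limma adjusted p = 0.104). It passed when the second Acute library was left out (0.43, adjusted p = 0.0436), and with library totals its sign turned (-0.17, adjusted p = 0.426).

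Of the calcium entry genes, the channel rose while 1 of its sensors fell. Orai1, the pore subunit, lies at chr5:123015074-123030456 on the plus strand with Gm2479 on the other strand. Signal was 1361, 1483 and 1417 in Acute, 2516, 2591 and 2542 in Chronic, and 1192, 1190 and 1418 in ChronicMEKi. Chronic libraries stood above all others, with a rise of 0.84 from Acute (SE 0.11, limma adjusted p = 1.03e-05), or 1.79-fold.

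Stim2, the sensor that responds to small losses of stored calcium, lies at chr5:53998499-54121057 on the plus strand, overlapped by Gm15820 on the other strand. It gave 5212, 5464 and 5298 in Acute, 3417, 3301 and 2788 in Chronic, and 3587, 3531 and 3749 in ChronicMEKi. Both chronic groups stood below Acute, and Chronic was the lower of them. The fall from Acute to Chronic was -0.75 (SE 0.10, limma adjusted p = 5.80e-06).

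Stim1, the main sensor for ORAI1 in T cells, lies at chr7:102267806-102437318 on the plus strand, overlapped by Gm18255 on the other strand. Its signal was 2669, 2471 and 2412 in Acute, 2514, 2628 and 1968 in Chronic, and 3830, 3754 and 3382 in ChronicMEKi. Acute and Chronic overlapped, and the ChronicMEKi libraries were above both. From Acute to Chronic the change was -0.10 (95% interval -0.34 to 0.14, limma adjusted p = 0.542). It came out lower with library totals (-0.59, adjusted p = 0.00262) and as deposited (-0.57, adjusted p = 0.00294), and turned to 0.03 without the third Chronic library.

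The third Chronic library was the lowest of its group for 7 of the 10 genes and the highest for none. Leaving it out ended none of the 8 calls between Chronic and Acute.

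MEK inhibition under chronic stimulation was compared next. ChronicMEKi and Chronic differed for 6 of the 10 members, against 17.6% of all genes tested. Nfatc1, Nfatc2, Ppp3cb and Stim1 were higher with the inhibitor (9.93% of all genes were), and Nfat5 and Orai1 were lower (7.65%). Groups did not overlap for 8 members, 6 above and 2 below, as for 32.2% of all genes (17.8% above and 14.4% below). The median log2 change was 0.15 over the members and 0.04 over all genes. This comparison shares the Chronic libraries with the one before, so opposite signs in the 2 are not independent of each other.

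Orai1 showed the largest difference, at -1.01 (SE 0.11, limma adjusted p = 2.76e-06), or 2.02-fold lower with MEK inhibition. Nfat5 fell by 0.79 on the log2 scale (SE 0.11, limma adjusted p = 3.24e-05). Both genes thus had their high signal only in the chronic group without inhibitor. Nfatc1 rose by 0.79 (SE 0.10, limma adjusted p = 1.90e-05) and Ppp3cb by 0.74 (SE 0.12, limma adjusted p = 1.90e-04).

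Stim1 rose by 0.63 (SE 0.11, limma adjusted p = 5.14e-04), a gene that Chronic and Acute had not separated. Nfatc2 rose by 0.46 (SE 0.13, limma adjusted p = 0.0195). It was the 1 call of the 6 that any of the 20 settings ended. It was lost without the first ChronicMEKi library (0.35, adjusted p = 0.13), without the third Chronic library (0.295, adjusted p = 0.0546), with no filter on low values (adjusted p = 0.177), and with neither intensity trend nor robust moderation (adjusted p = 0.126).

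The other members did not pass the test. Nfatc3 differed by 0.11 (95% interval -0.06 to 0.28, limma adjusted p = 0.400) and Stim2 by 0.20 (95% interval -0.00 to 0.40, limma adjusted p = 0.180), although in both genes all ChronicMEKi libraries lay above all Chronic ones. Rcan1 showed a difference of 0.00 (95% interval -0.31 to 0.31, limma adjusted p = 0.999). Ppp3ca differed by -0.22 (95% interval -0.47 to 0.02, limma adjusted p = 0.222) and was called lower without the third Chronic library (-0.38, adjusted p = 0.00394).

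**Figure D2:**
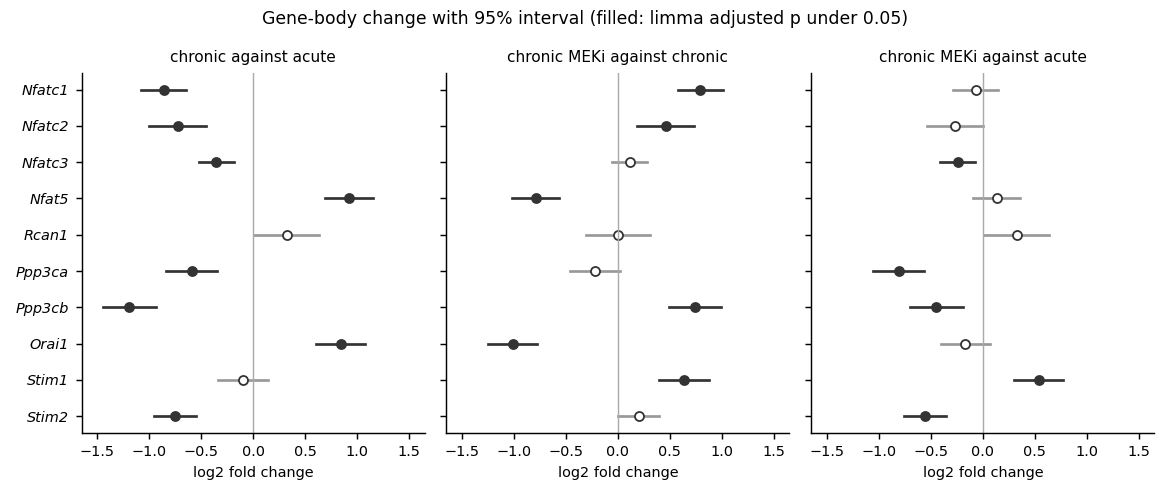
Log2 change of gene-body signal (x axis) for the 10 genes (rows) in the 3 comparisons; points are estimates, lines 95% intervals, and filled points passed limma's adjusted p of 0.05. Nfat5 and Orai1 lie right of 0 on the left and left of 0 in the middle, and Ppp3ca is filled on both outer panels only.

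ChronicMEKi and Acute differ in both stimulation and inhibitor. No acute group had the inhibitor, so the parts of stimulation and inhibitor in this comparison cannot be told apart. Of the 10 members 5 were called, against 25.8% of all genes tested: 4 lower (Ppp3ca, Stim2, Ppp3cb and Nfatc3; 11.5% of all genes) and 1 higher (Stim1; 14.4%). Groups did not overlap for 7, 2 above and 5 below, as for 42.0% of all genes (22.4% above and 19.6% below). Median log2 changes were -0.21 over the members and 0.00 over all genes.

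Ppp3ca differed most from Acute, at -0.81 (SE 0.12, limma adjusted p = 3.49e-05), followed by Stim2 at -0.56 (SE 0.10, limma adjusted p = 2.38e-04). These calls held in all 20 alternative settings. Stim1 was higher by 0.54 (SE 0.11, limma adjusted p = 0.00163), but not with library totals (0.15, adjusted p = 0.459) or as deposited (0.19, adjusted p = 0.334).

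Ppp3cb stayed lower than in Acute by -0.45 (SE 0.12, limma adjusted p = 0.00952), a call lost only with neither trend nor robust moderation (adjusted p = 0.0712). Nfatc3 was lower by -0.24 (SE 0.08, limma adjusted p = 0.0300), and this was lost with no filter (adjusted p = 0.101), with neither trend nor robust moderation (adjusted p = 0.0772), without the second ChronicMEKi library (adjusted p = 0.0542) and without the third (adjusted p = 0.0966).

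Not called were Nfatc1 (-0.07, 95% interval -0.29 to 0.15, limma adjusted p = 0.684), Nfat5 (0.13, -0.09 to 0.36, limma adjusted p = 0.412) and Orai1 (-0.17, -0.40 to 0.07, limma adjusted p = 0.303). For Nfatc2 (-0.27, 95% interval -0.54 to 0.00, limma adjusted p = 0.146) the ChronicMEKi libraries all lay below the Acute ones. It was called lower without the third Chronic library (adjusted p = 0.0346). Rcan1 differed by 0.32 (95% interval 0.01 to 0.64, limma adjusted p = 0.124), and with library totals by -0.06. With library totals Nfatc1 (-0.45, adjusted p = 0.0135), Nfatc2 (-0.65, adjusted p = 0.00232) and Orai1 (-0.55, adjusted p = 0.00253) were called lower as well, and Nfat5 turned to -0.25 without passing. Totals that leave out ribosomal RNA-like rows also gave lower calls for Nfatc2 (-0.44, limma adjusted p = 0.0139) and Orai1 (-0.34, limma adjusted p = 0.0307).

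Divided by the annotated span of the row, the levels of the genes can be set beside each other. In Acute, Nfatc2 was highest at 263 ± 37.1 signal per kb (SD, n = 3), followed by Nfatc3 (108 ± 1.58), Ppp3cb (102 ± 3.76), Nfatc1 (96.7 ± 11.6) and Orai1 (92.3 ± 3.98). Nfatc1 did not differ from its neighbours Ppp3cb and Orai1 by more than its SD. Lower down came Stim2 (43.5 ± 1.04), Nfat5 (35.95 ± 2.76), Ppp3ca (21.3 ± 0.797), Stim1 (14.9 ± 0.796) and Rcan1 (13.6 ± 2.35), the last 2 within their spread.

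The order changed in Chronic. Orai1, at 166 ± 2.46 per kb, came level with Nfatc2, at 160 ± 29.4, and Nfat5, at 68.5 ± 8.82, stood above Nfatc1 (53.3 ± 6.37) and Ppp3cb (45.2 ± 9.40), which were within their spread of each other. Nfatc3 was at 84.6 ± 1.62, Stim2 at 25.9 ± 2.73, Rcan1 at 16.9 ± 2.42, Ppp3ca at 14.3 ± 2.73 and Stim1 at 13.98 ± 2.08, the last 3 within their spread. In ChronicMEKi, Nfatc2 was again highest (218 ± 16.4 per kb), with Nfatc1 at 91.9 ± 4.67, Nfatc3 at 91.4 ± 1.51, Orai1 at 82.3 ± 8.51 and Ppp3cb at 74.9 ± 4.80. Nfat5 was at 39.5 ± 3.26 and Stim2 at 29.6 ± 0.921. Stim1 (21.6 ± 1.41 per kb) then exceeded Rcan1 (16.9 ± 1.07) and Ppp3ca (12.1 ± 0.240). A row's span can begin upstream of the start with the most pause-region signal, as for Nfatc1 and Rcan1 below. The bases ahead of that start are then counted in the span. Which start is used was not tested.

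A second deposited table, read here as the pause region near each start, holds a second value for each transcript. Ribosomal RNA-like rows took 66.8% to 68.6% of its signal in Acute, 77.7% to 82.6% in Chronic and 73.6% to 80.6% in ChronicMEKi libraries. Only Nfatc2, Nfatc3, Nfat5 and Ppp3cb passed the filter there. Chronic and Acute differed for 2 of these 4, against 10.7% of the 7678 genes tested: 1 was higher (5.37% of all genes) and 1 lower (5.35%). Nfat5 pause-region signal was 41.5, 25.5 and 3.95 in Acute, 105, 140 and 104 in Chronic, and 39.7, 43.8 and 69.9 in ChronicMEKi. The Chronic libraries again stood above all others, and the rise from Acute was 2.36 (SE 0.53, limma adjusted p = 0.00287). It was 1.67, still called, without the third Acute library, whose value was the lowest, and at most 2.86 with any other library left out. By these values no Acute library reached the signal that the filter asks for, while every Chronic library did. Nfat5 thus entered this test through its higher group, and that selection favours a rise.

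Nfatc2 gave 299, 279 and 231 in Acute, 121, 220 and 83.5 in Chronic, and 211, 231 and 157 in ChronicMEKi. Chronic lay below Acute (-1.01, SE 0.30, limma adjusted p = 0.0249). The call was lost without the first Acute (adjusted p = 0.098), the second Acute (0.0584), the first Chronic (0.0738) or the third Chronic library (0.161). It was also lost with no filter on low values (0.123), with neither trend nor robust moderation (0.118) and with totals that leave out ribosomal RNA-like rows (0.0616).

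Ppp3cb pause-region signal differed by -0.93 (95% interval -1.75 to -0.10, limma adjusted p = 0.159) and was called lower without the third Chronic library (-1.41, adjusted p = 0.0294) and with library totals (-1.51, adjusted p = 0.0103). That library's value was 104, and the other Chronic libraries had 34.5 and 35.0. Nfatc3 differed by -0.38 (95% interval -1.18 to 0.41, limma adjusted p = 0.614). By limma, no member was called in ChronicMEKi against Chronic (3.0% of all genes; 1.56% higher and 1.43% lower) or against Acute (5.95%; 3.44% higher and 2.51% lower). In both, Nfat5 was the 1 member of the 4 with an unadjusted p under 0.05, at -1.13 (adjusted p = 0.321) and 1.23 (adjusted p = 0.188).

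Orai1 stayed below the filter in this table and has no test. Its pause-region signal was 15.01, 13.7 and 12.9 in Acute, 31.4, 82.9 and 25.2 in Chronic, and 10.1, 15.9 and 24.9 in ChronicMEKi. The Chronic libraries were the highest, the lowest of them by a small margin. For the ratio of pause region to gene body, limma called 0 genes (0.00%) of 7413 in each comparison, with 749, 394 and 591 genes under an unadjusted p of 0.05. Among the 4 members only Nfat5 in Chronic against Acute was under it (1.44, SE 0.57, limma adjusted p = 0.443).

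The tables hold a row per annotated transcript, so signal can be read at each start, as a description with no test. Next to the internal Rcan1 window with 3 NFAT cores printed above, pause-region signal was at most 2.65 in any library, and at most 4.67 at a start just after it. Next to the upstream window printed beside it, 4721 bases after the first annotated start, it was 30.9, 31.5 and 37.6 in Acute, 78.4, 102 and 32.2 in Chronic, and 107, 60.5 and 56.5 in ChronicMEKi. Of the annotated Rcan1 starts this one had the highest mean in every group, and all ChronicMEKi libraries but only 2 of 3 Chronic ones exceeded Acute. The first annotated start showed 3.95 in 1 Acute library and 0 elsewhere, a start 12392 bases on 0 to 25.7, and the last start, 77235 bases on, 9.496 to 47.9. Gene-body signal of the short row from the internal start was 102 ± 8.97 in Acute, 159 ± 42.5 in Chronic and 184 ± 31.3 in ChronicMEKi (SD, n = 3). That row lies inside longer Rcan1 transcripts, whose RNA cannot be told apart from its own.

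Nfatc2 signal was highest among the starts next to the downstream window, with means of 350 in Acute, 178 in Chronic and 273 in ChronicMEKi at the start 11466 bases on. The upstream starts, with 3 cores in their window, had 0 in 7 libraries, 1.17 in 1 Chronic and 9.82 in 1 ChronicMEKi library. Nfatc1 signal sat 4898 bases after the first annotated start, with 155, 127 and 130 in Acute, 91.0, 89.9 and 54.3 in Chronic, and 161, 125 and 95.7 in ChronicMEKi, so Chronic lay below both other groups there too. At the 2 most upstream Nfatc1 starts no library exceeded 18.1. Nfat5 has a second set of starts downstream. At 107338807 on chromosome 8, 45337 bases after the first start, signal was 59.7 ± 5.22 in Acute, 29.2 ± 5.08 in Chronic and 56.4 ± 13.3 in ChronicMEKi (SD, n = 3), lowest in the group where the first start was highest. A start 45443 bases on had 64.5, 34.5 and 66.7 on average, but one 45038 bases on had 26.5, 30.6 and 30.8. These windows lie inside the gene body of the long transcript, so RNA of the long transcript and of these starts cannot be told apart.

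For 6 members a shorter transcript row sharing the start within 100 bases divides the gene body into an upstream and a downstream portion. This reading was chosen after the data were seen and is a description. Of the Ppp3ca signal over its 127.7 kb upstream and 139.9 kb downstream portions, the downstream share was 58.2%, 54.9% and 61.1% in Acute, 41.0%, 43.6% and 47.2% in Chronic, and 49.3%, 48.3% and 45.9% in ChronicMEKi. All libraries of both chronic groups were below those of Acute. The upstream portion changed by -0.17 and the downstream one by -0.99 (log2, Chronic minus Acute), a gap of -0.82 that lies at percentile 2.3 of 2102 genes with such portions (median -0.05). Against Acute, ChronicMEKi showed a gap of -0.60.

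The fall of Ppp3ca was thus larger in its downstream portion. Signal of the overlapping genes named above was not separated. Gaps of the other members between Chronic and Acute were 0.20 for Nfatc1, -0.22 for Nfatc2, -0.205 for Nfatc3, -0.155 for Nfat5 and 0.28 for Stim1, inside the central range of all genes from -0.58 (percentile 5) to 0.47 (percentile 95).

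**Figure D3:**
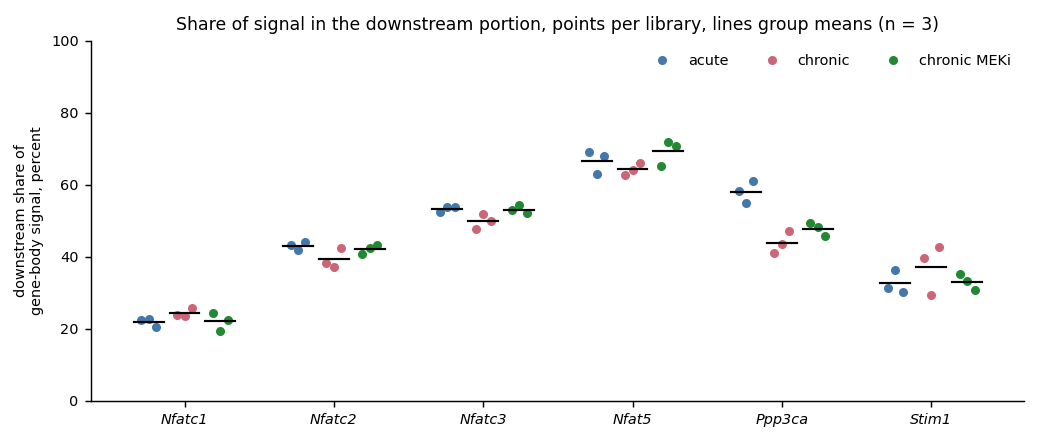
Share of gene-body signal in the downstream portion (y axis, percent) of 6 genes (x axis); points are libraries, lines group means (n = 3). Ppp3ca is at 54.9% to 61.1% in Acute and 41.0% to 49.3% in the other groups, and it is the 1 gene of the 6 in which both chronic groups lie apart from Acute.

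By Pearson correlation of log2 signal over the 9 libraries, which share groups and scaling, the genes most like each member were sought among 10653 genes. This is a description. Nfatc1 was followed by Zfp710 (r = 0.993), Bcl9l and Dnah8, and Nfatc2 by Sema4d (r = 0.993), Ppm1b and Slc23a2. Nfatc3 resembled Sntb1 (r = 0.995), Diablo and Igfbp4, and Nfat5 resembled Lrmp (r = 0.982), Cnot6l and Acaca. For Ppp3ca they were Tbl1xr1 (r = 0.989), Klhl6 and Smad3, for Ppp3cb Zfp281 (r = 0.991), Jmjd1c and Drc1, and for Rcan1 Rps6ka4 (r = 0.981), Gstp3 and Tsc2. Orai1 went with Sema4b (r = 0.988), Neb and Calcrl, Stim1 with Wrap53 (r = 0.985), Man2a2 and Cables1, and Stim2 with Pum2 (r = 0.998), St6galnac5 and Atp11b. None of the 10 members was among the 3 closest genes of another member. Likeness of pattern is not likeness of size: Igfbp4 averaged 8351, 197 and 641 in Acute, Chronic and ChronicMEKi.

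The rest of the pathway was read from 5 lists. Of 10 calcineurin subunits and regulators, all tested, 4 were higher and 3 lower in Chronic than in Acute (median log2 change 0.25). Over all genes tested, 18.0% were called higher and 15.9% lower. Fkbp1a, which encodes the immunophilin FKBP12 through which tacrolimus inhibits calcineurin, rose by 0.77, and the calmodulin gene Calm3 by 0.66. Rcan3, a relative of Rcan1, changed by -0.82, the third catalytic subunit Ppp3cc by -0.31 and the calcineurin-binding repressor Cabin1 by -0.29 (limma adjusted p at most 0.0167 for these 5). The Cabin1 call was lost without the second Acute (adjusted p = 0.0547) or the second Chronic library (0.0582). With no filter, or with neither trend nor robust moderation, 1 gene was lower. With library totals none of the list was called higher, and Fkbp1a was at 0.27.

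With MEK inhibition Fkbp1a fell, by a log2 change of -1.03 from Chronic (limma adjusted p = 7.06e-08), and Rcan3 rose by 0.34 (limma adjusted p = 0.0269). The other 8 were not called (list median 0.08), so the shares called were near those of all genes (9.93% higher and 7.65% lower). The Rcan3 call was lost in 9 of 20 settings, 7 of them with 1 library left out. Without the first ChronicMEKi library the Rcan3 rise was 0.23 (adjusted p = 0.252). Against Acute, ChronicMEKi was higher for Calm3 (0.84) and Calm2 (0.44), among others, and lower for Rcan3 (-0.48) and Fkbp1a (-0.27), by limma (list median -0.095). The last was lost without the first Acute and without the first or second ChronicMEKi library, and Calm2 without the first Acute library (adjusted p = 0.0522). Without the third Acute or the third Chronic library 4 genes were lower. With library totals only 1 gene was higher and 5 were lower. Ppp3r1, the regulatory subunit, was not called in any comparison (log2 changes of 0.15, -0.15 and 0.0034).

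Of 11 genes of the NFAT family and its kinases 10 were tested, Nfatc4 staying at or under 13.5 in every library. Chronic was higher than Acute for 3 (Csnk1e 0.63, Nfatc2ip 0.47, Gsk3b 0.40) and lower for 4 (median 0.10), where 18.0% and 15.9% of all genes were. None was called higher with library totals, as deposited, or with totals that leave out ribosomal RNA-like rows. Csnk1e lost its call in 12 of the 20 settings, 6 of them with 1 library left out (adjusted p up to 0.112 in these). Nfatc2ip lost it in 7, with adjusted p = 0.103 without the first Acute and 0.0694 without the first Chronic library. Leaving out either of these libraries left 1 gene higher, and leaving out the second Acute library left 2 lower. The falls were led by Dyrk2, a kinase known to phosphorylate NFAT, at -1.70 (limma adjusted p = 1.35e-08), from 2979 ± 236 in Acute to 926 ± 184 in Chronic (SD, n = 3). The casein kinase 1 genes Csnk1a1 (-0.31) and Csnk1d (-0.29) were also called lower, the latter not without the first Acute (adjusted p = 0.06), the second Acute (0.067) or the first Chronic library (-0.21, 0.116).

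With MEK inhibition 3 of the 10 rose and none fell by limma (median 0.22), where 9.93% and 7.65% of all genes did. Dyrk2 rose by 0.78, Nfatc2ip by 0.77 and Dyrk1a by 0.40, of which the last was lost in 3 of 20 settings, among them without the first ChronicMEKi library (adjusted p = 0.0526). Against Acute, 3 were higher (Nfatc2ip 1.24, Homer3 0.72, Gsk3b 0.35) and 2 lower (Dyrk2 -0.92, Csnk1a1 -0.27), with a median of 0.19. Over all genes 14.4% were higher and 11.5% lower. With library totals only 1 of the list was higher. The Homer3 call was lost in 13 of the 20 settings, with 0.38 (adjusted p = 0.32) without the first Acute library, which also ended that of Gsk3b (adjusted p = 0.0545).

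The third list held calcium channels, stores and pumps. Of 18 genes 17 were tested (Cracr2b stayed at or under 33.8), of which 9 were lower and 3 higher in Chronic than in Acute, where 15.9% and 18.0% of all genes were. The median was -0.81 against -0.02 over all genes. Without the third Chronic library 5 were higher. The inositol trisphosphate receptor Itpr2 changed by -1.58, and the plasma membrane calcium pumps Atp2b4 and Atp2b1 by -1.44 and -1.23 (limma adjusted p at most 5.86e-09). Trpm4 (0.73), Itpr1 (0.72) and the potassium channel Kcnn4 (0.36) were higher, but not with library totals.

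With MEK inhibition 6 of the 17 rose and 2 fell (median 0.17), where 9.93% and 7.65% of all genes did. Atp2b4 rose by 1.05, the endoplasmic reticulum pump Atp2a3 by 0.80 and Itpr2 by 0.80, while Orai2, which forms channels with Orai1, fell by 0.62 and the mitochondrial uniporter Mcu by 0.46 (limma adjusted p at most 0.0235). The call of Mcu was lost in 7 of 20 settings, among them library totals and leaving out the first Chronic (adjusted p = 0.118), the second Chronic (0.0844) or the third ChronicMEKi library (0.0994). Against Acute, 7 were lower and 3 higher (median -0.21), where 11.5% and 14.4% of all genes were. Kcna3 (-1.07), Atp2b1 (-0.999) and Itpr2 (-0.78) fell furthest, and Trpm4 (0.82), Itpr1 (0.81) and Kcnn4 (0.76) rose. The Kcna3 call was lost without the first Acute (adjusted p = 0.0568), the second Acute (0.114), the first ChronicMEKi (0.0971) or the third ChronicMEKi library (0.0866). With library totals 11 were lower, without the third ChronicMEKi library 4, and with no filter or with neither trend nor robust moderation 3.

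**Figure D4:**
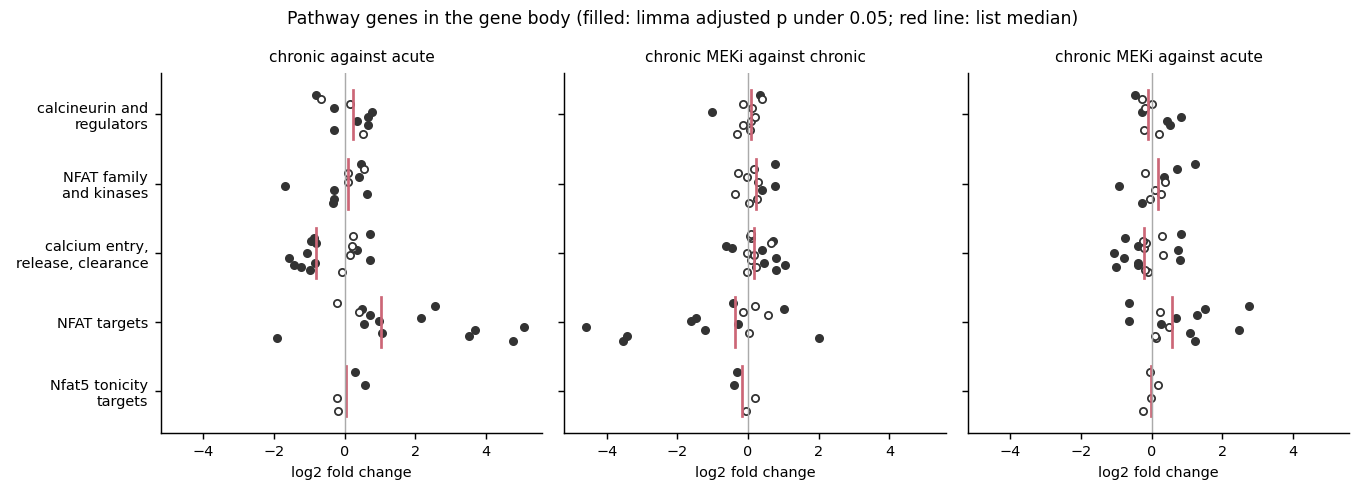
Log2 change of gene-body signal (x axis) for tested genes of 5 pathway lists (rows) in the 3 comparisons (panels); each point is a gene, filled where limma's adjusted p was under 0.05, and red lines are list medians. NFAT target genes spread from -1.91 to 5.07 between Chronic and Acute, wider than the other lists; with library totals the median gene moves by -0.48 in that panel.

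Several textbook NFAT targets changed by more than any member. Of 18 genes 14 were tested: Il2, Il3 and Egr3 stayed at or under 11.3 (Il2 and Il3) and 49.5 (Egr3) in every library, and Cd40lg was not analysed here. Chronic exceeded Acute for 11 and was lower for 1, with a median of 1.02, where 18.0% and 15.9% of all genes were called. Il13 went from 282 ± 23.6 to 9661 ± 1328 (SD, n = 3; log2 change 5.07, limma adjusted p = 1.28e-11), Csf2 rose by 4.78 and Ifng by 3.69. Ctla4, an inhibitory receptor, was the gene that fell, with a change of -1.91. With library totals 7 were higher and 2 lower, and without the first Acute library 2 were lower.

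With MEK inhibition 8 of these fell and 2 rose (median -0.36), where 7.65% and 9.93% of all genes did. Il13 fell by 4.59 and Csf2 by 3.55 on the log2 scale, and Egr2, a transcription factor tied to T cell anergy, by a log2 change of -3.42 (limma adjusted p at most 1.10e-08), while Ctla4 rose by 2.02 and the nuclear receptor Nr4a3 by 1.02. Against Acute 8 were higher, led by Pdcd1, which encodes PD-1 (2.77), Ifng (2.46) and Nr4a3 (1.51), and 2 lower, Tnf (-0.64) and Il4 (-0.63), with a median of 0.59. Over all genes 14.4% were higher and 11.5% lower. The Il4 call was lost without the third Acute (adjusted p = 0.0557) or the third ChronicMEKi library (0.069).

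The last list held osmotic stress genes bound by NFAT5. Of 5 listed, Slc6a12 stayed at or under 44.1 and 4 were tested. Over all genes, 18.0% were higher in Chronic than in Acute, and 7.65% were lower with MEK inhibition. The inositol transporter Slc5a3 (0.58) and the taurine transporter Slc6a6 (0.29) were higher in Chronic than in Acute (limma adjusted p = 4.53e-04 and 0.0273), and lower with MEK inhibition (-0.40 and -0.32, adjusted p = 0.0168 and 0.0253). Both had the signs of Nfat5, but with library totals and as deposited neither was called in either comparison, and Slc6a6 turned to -0.21 and -0.19 between Chronic and Acute. With 1 library left out, Slc6a6 lost its call in Chronic against Acute without the first or the third Acute or the first or second Chronic library (adjusted p up to 0.123). With MEK inhibition it lost it without the first or second Chronic or the second or the third ChronicMEKi library (up to 0.128), and Slc5a3 without the first 3 of these 4 (up to 0.0785). Akr1b3 and Slc38a2 were not called in any comparison, and against Acute no gene of the list was called in ChronicMEKi by limma. With library totals 2 genes of the list were lower in Chronic and 3 in ChronicMEKi than in Acute.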

How the data were processed

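Values of 9 nascent RNA libraries, 3 per group, came from 2 tables deposited by the authors. Both hold signal per annotated transcript, over regions that their names abbreviate as GB and PR and that are read here as gene body and pause region. Their exact coordinates, the counting program and its use of strand are not given in the sources used here. The submitters' processing notes name build mm10 and FastQC 0.12.0, Trim Galore 0.6.10, STAR 2.7.0a, SAMtools 1.19.2, deepTools 0.1.9 and R 4.1.2, without roles. The deposited signal is not whole reads: low values are multiples of a step of 0.764 to 1.06 per library, which points to a scale factor in each library, and depth in reads is unknown.

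Of 118482 rows, 117346 matched GENCODE M21 by identifier and version, 383 without version, and 753 were left out. Each gene kept its row of highest average gene-body signal. Genes overlapping another gene are uncertain. Genes reaching a signal of 50 in 3 libraries or more were scaled by a trimmed mean without weights (trimming 30% by log ratio and 5% by level at each end) and tested as log2(signal + 5) in 1 limma model over all libraries, with intensity trend, robust moderation and Benjamini-Hochberg adjustment (limma 3.58.1, R 4.3.3; Python 3.11.15, pandas 2.3.3). The fit was checked on simulated data. A total of 20 alternatives changed pseudocount, filter, scaling, moderation, block, row or libraries.

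The members, the lists and the tests were chosen with earlier results of these data known. Genes were named by rule: all members, the 3 largest called rises and falls of each pathway list per comparison, list genes below the filter, and the 3 genes most correlated with each member among those averaging 100 or more. Some genes the rule would name are not reported here. Ppp3r1, Akr1b3 and Slc38a2 were named after their values were seen. Groups have 3 libraries, so leaving 1 out leaves 2.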

Additional observations from a re-analysis of the deposited data

How the results depend on the processing

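Across 20 alternative settings, 17 of the 30 member changes in the gene body stayed on the same side of the threshold with the same sign, and so did 34 of the 62 changes of named pathway genes; the cause of the other shifts was not tested. The count of members called in ChronicMEKi against Acute was 3 with neither trend nor robust moderation, in place of 5. It was 7 with library totals, as deposited, and with totals without ribosomal RNA-like rows. In the pause region, Chronic against Acute gave 1 member, in place of 2, with no filter on low values, with a filter on a mean signal of 100, with totals without ribosomal RNA-like rows and with neither trend nor robust moderation. Leaving out 1 library at a time gave 8 to 9 members called in the gene body for Chronic against Acute, 5 to 6 for ChronicMEKi against Chronic and 4 to 6 for ChronicMEKi against Acute. In the pause region it gave 1 to 2, 0 to 0 and 0 to 0, and for pausing 0 throughout.

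Signs turned as follows, on the log2 scale, in every case without a call. With library totals and as deposited, Rcan1 was -0.17 and -0.15 in Chronic against Acute and -0.06 and -0.0176 in ChronicMEKi against Acute, and Nfat5 was -0.25 and -0.21 in the latter (-0.0367 with totals without ribosomal RNA-like rows). Rcan1 in ChronicMEKi against Chronic was -0.0698 with no filter, -0.0095 with a filter on a mean of 100, -0.0096 with totals without ribosomal RNA-like rows, -0.0275 with only the groups compared, and -0.1083 to 0.1104 with 1 library left out. Stim1 in Chronic against Acute was 0.0334 without Chronic 3 (-0.1744 at the other end of its leave-one-out range). In the pause region, leave-one-out values of Nfatc3 ran from -0.7314 to 0.2851 in Chronic against Acute and from -0.0341 to 0.9824 in ChronicMEKi against Chronic, the turned ones without Chronic 2, and Nfatc3 was -0.0981 in ChronicMEKi against Acute with library totals. Of pathway genes, library totals and the deposited scale turned, in Chronic against Acute, Nfatc2ip (-0.0208 and -0.0018), Gsk3b (-0.0972 and -0.0781), Kcnn4 (-0.13 and -0.11) and Slc6a6 (-0.21 and -0.19), and totals turned Gsk3b in ChronicMEKi against Acute (-0.0313).

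Scaling set the balance of all calls: 53.2% of genes called between Chronic and Acute were higher, but 13.7% with library totals, 14.5% as deposited and 35.6% with totals without ribosomal RNA-like rows. For ChronicMEKi against Acute these were 55.6%, 16.0%, 18.4% and 33.1%, and for ChronicMEKi against Chronic 56.5%, 70.5%, 73.3% and 54.7%. With no filter, called genes fell from 2802 to 1637 and from 4118 to 2642 in the comparisons of ChronicMEKi with Chronic and with Acute. In the pause region, genes called in Chronic against Acute went from 823 to 1768 with library totals and to 494 with no filter.

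Nothing states whether replicate numbers pair libraries across groups. Deviations of same-numbered libraries correlated at -0.53 to 0.10 over 9 pairs, and those of other libraries at -0.37 to 0.51 over 18. Between Acute and Chronic, same-numbered pairs were at 0.09, 0.10 and 0.07 and the others at -0.08 to -0.01. Of the libraries, 2 correlated best with their own number. Deviations within a group of 3 depend on each other, so these values cannot decide whether the numbers pair libraries. With the replicate block, 8, 6 and 6 members were called in the 3 gene-body comparisons, the last adding Nfatc2 (-0.27, adjusted p = 0.0373), and 5497, 2956 and 4263 genes in all.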
